A study of Mus musculus with 3 samples.

Results

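Processed pseudogenes are copies of spliced transcripts that were reverse-transcribed and inserted back into the genome. In mammals the enzyme that makes these insertions is supplied by LINE-1, a retrotransposon that encodes an RNA-binding protein, ORF1p, and a protein with endonuclease and reverse transcriptase activity, ORF2p. A processed pseudogene arrives without the promoter and introns of its source gene, and many sit inside introns of unrelated genes, so that a read over such a copy can come from its own transcript, from the nascent transcript around it or, where the copy is nearly identical, from the source gene. The members described here are the genes whose transcripts carry the GENCODE type processed pseudogene or transcribed processed pseudogene and whose mean count over the 3 libraries was at least 10 in the alignment-based gene tables, or at least 10 in the alignment-free transcript tables after summing over the transcripts of a gene. The members were thus chosen by their counts in both kinds of table. Of 10244 annotated processed pseudogenes, 1162 met this rule, 1044 typed processed and 118 typed transcribed processed. Where every transcript of a gene had to be of the type, 1057 members remained. As genes, 3 of the 1162 are typed protein-coding or lincRNA.

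The study measured total RNA of the chromatin fraction, depleted of ribosomal RNA, from macrophages grown from bone marrow of the C57BL/6J strain and stimulated with 100 ng/ml lipid A, the TLR4-binding part of lipopolysaccharide, for 90 min. There were 3 libraries of this 1 condition, labelled as biological replicates 1, 2 and 3 and carrying the same donor label, from 1 µg, 250 ng and 500 ng of RNA with a size range of 250 to 400. Age and sex were not collected, and no untreated sample was analysed here, so none of the values below is a response to lipid A. The alignment-based counts summed to 11277198, 24965749 and 19794886 in replicates 1, 2 and 3, and the alignment-free counts to 18505418, 45614572 and 34217429. All 8 macrophage markers examined passed a mean alignment-based count of 10, while the 15 markers of T and NK cells, B cells, neutrophils, erythroid, stromal and endothelial cells had mean levels of at most 0.247 TPM, with 8 of them at 0 in every library and 1 passing that count. Because protein-coding genes made up a different share of each library, counts are compared between libraries as counts per 1000000 protein-coding counts of the same table, called the scaled count below.

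The sequences of 6 members are shown because they stand for the kinds of copy among the members. Gm9845 and its source Cflar did not differ anywhere in the copy, Rpl36-ps2 and Hmgb1-ps5 are near-identical copies, Gm47324 is a diverged copy, and Gm48493 and Gm48415 belong to a large set of related members. Each is a stretch of 120 bases, 5′ to 3′ on the member's strand, from the GENCODE M21 transcripts on mm10. Capitals mark bases that differ from the sequence printed above it, which for the first 4 pairs lies within the coding sequence of the source gene.
Cflar: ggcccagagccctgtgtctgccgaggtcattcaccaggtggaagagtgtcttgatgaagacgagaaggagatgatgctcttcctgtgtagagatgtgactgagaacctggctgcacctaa
Gm9845, chr3:39358784-39358903, minus strand: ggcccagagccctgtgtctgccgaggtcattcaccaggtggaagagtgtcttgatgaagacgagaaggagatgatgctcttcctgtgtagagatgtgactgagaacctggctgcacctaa
Rpl36: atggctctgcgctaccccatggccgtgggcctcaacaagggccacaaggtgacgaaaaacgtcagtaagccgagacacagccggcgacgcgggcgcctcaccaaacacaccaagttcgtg
Rpl36-ps2, chr11:76601319-76601438, plus strand: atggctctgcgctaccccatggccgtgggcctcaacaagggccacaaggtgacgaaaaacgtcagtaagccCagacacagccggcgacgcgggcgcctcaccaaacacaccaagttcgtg
Hmgb1: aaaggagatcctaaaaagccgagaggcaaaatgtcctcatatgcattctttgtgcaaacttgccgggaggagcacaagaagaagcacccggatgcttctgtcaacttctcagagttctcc
Hmgb1-ps5, chr3:95530418-95530537, plus strand: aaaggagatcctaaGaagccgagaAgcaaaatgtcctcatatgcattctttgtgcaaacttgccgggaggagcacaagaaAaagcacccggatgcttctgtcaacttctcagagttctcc
Dnaaf2: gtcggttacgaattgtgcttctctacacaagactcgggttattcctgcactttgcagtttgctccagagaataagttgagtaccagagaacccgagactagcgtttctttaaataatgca
Gm47324, chr7:101238477-101238596, plus strand: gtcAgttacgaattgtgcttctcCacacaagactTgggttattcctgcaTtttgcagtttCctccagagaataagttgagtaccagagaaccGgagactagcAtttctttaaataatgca
Gm48493, chr13:16389640-16389759, minus strand: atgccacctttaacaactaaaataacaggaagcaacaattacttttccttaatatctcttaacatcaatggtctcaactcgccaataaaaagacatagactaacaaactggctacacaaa
Gm48415, chr12:63170181-63170300, plus strand: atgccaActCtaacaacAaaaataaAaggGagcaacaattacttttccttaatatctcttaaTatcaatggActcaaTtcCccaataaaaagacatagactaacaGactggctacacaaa
Over the whole match, Gm9845 had 0 mismatches to Cflar in 598 bases, Hmgb1-ps5 was 98.2% identical to Hmgb1, Rpl36-ps2 96.6% to Rpl36 and Gm47324 91.0% to Dnaaf2. Gm48415 differed from Gm48493 at 78 of 1723 bases, while another member of that set, Gm42927, differed from Gm48493 at only 7 of 3841.

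The tables disagreed on which members carry reads. In all, 460 members passed the minimum in both tables, 677 passed in the alignment-free table only and 25 in the alignment-based table only. The values of both tables chose the members, so these counts describe the rule. A split between the tables was also seen over all genes. Of the 22389 genes, members included, that passed in either table, 13378 passed in both. Just inside the threshold were Gm15994 and Gm7805, each with a mean alignment-free count of 10, and just outside were Gm47954 at 9.975 and Mdk-ps1 at 9.852. Among the members, 317 were listed at 0 in all 3 alignment-based tables, with a median alignment-free count of 43.1. Most members thus passed through the alignment-free table alone, and the scatter of the members in both tables shows them at the left.

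**Figure D1:**
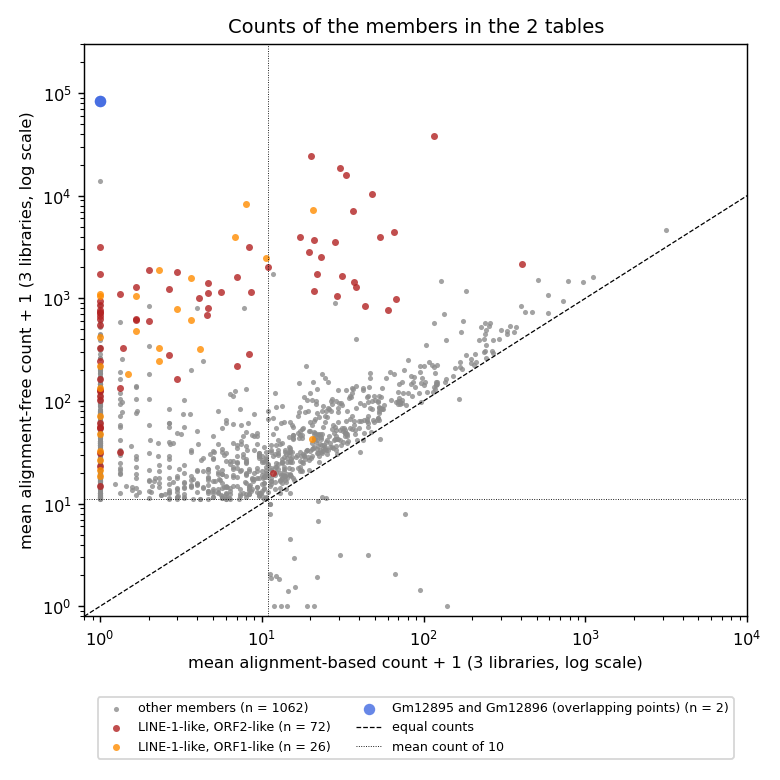
Each point is a member, placed by its mean alignment-based count plus 1 (x axis, log scale) and its mean alignment-free count plus 1 (y axis, log scale) over 3 libraries, and dotted lines mark a mean count of 10. Gm12895, Gm12896 and most LINE-1-like members lie far above the dashed line of equal counts, LINE-1-like Gm48499 and Gm48333 lie near it, and the 25 members passing only in the alignment-based table lie at the lower right.

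All annotated processed pseudogenes, members and others alike, took 0.428%, 0.121% and 0.169% of the alignment-based counts of annotated genes in replicates 1, 2 and 3, and 1.83%, 1.56% and 1.34% of the alignment-free counts. The alignment-free share was higher in each library, by 1.34 ± 0.15 percentage points (SD, n = 3). A two-sided exact permutation test that flips the sign of each library's difference gave p = 0.25, the smallest value that 3 libraries allow. Members without the LINE-1-like set and without Gm12895 and Gm12896 took 0.220% ± 0.157 of the alignment-based counts and 0.397% ± 0.240 of the alignment-free counts (SD, n = 3). Over all members the difference was 1.33 percentage points, and with those 2 sets left out it was 0.177. The members were chosen by these counts, many through the alignment-free table alone, so both differences are a description.

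Among the members the highest mean alignment-free counts belonged to Gm12895 and Gm12896. In replicate 1 all other members of the 10 highest, from Gm47654 at 6102 to Gm48493 at 39232, were above their 4793 each. Gm12895 and Gm12896 are a pair of 226-base members on chromosome 4 with a GC content of 71.2% and 72.1%. They share 224 bases without a mismatch. In the search they matched no GENCODE transcript, coding or not, outside the 2 processed pseudogene types. Processed pseudogenes that are not members were not searched. Their sequences are printed whole, with capitals for the bases outside the shared stretch, because the label of processed pseudogene could not be tied to a source gene for either.
Gm12895, chr4:122455210-122455435, plus strand: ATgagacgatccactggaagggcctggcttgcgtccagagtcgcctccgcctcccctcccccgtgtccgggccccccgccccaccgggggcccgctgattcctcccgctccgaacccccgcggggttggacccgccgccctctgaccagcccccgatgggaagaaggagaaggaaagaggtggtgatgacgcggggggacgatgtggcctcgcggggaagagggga
Gm12896, chr4:122122847-122123072, plus strand: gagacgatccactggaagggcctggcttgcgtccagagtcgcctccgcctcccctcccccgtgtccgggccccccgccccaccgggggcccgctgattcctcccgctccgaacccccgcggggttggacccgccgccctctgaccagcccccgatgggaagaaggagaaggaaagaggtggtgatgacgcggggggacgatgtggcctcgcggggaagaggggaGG
The alignment-free counts of Gm12895 were 4793, 191873 and 54248 in replicates 1, 2 and 3, and those of Gm12896 were the same in each library. Both were listed at 0 in all 3 alignment-based tables. Together the pair made up 2.90%, 54.2% and 23.9% of the members' alignment-free counts, so replicate 2 was far above replicate 1. The amount of starting RNA was lowest in replicate 2 and highest in replicate 1, and its part in this order was not tested.

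A set of 98 related members are called LINE-1-like. They were defined, after their values had been seen, as members with at least 50% of their bases matched to Gm48493 or Gm48269, and they are therefore described with no test of the set. Gm48493 holds an open reading frame of 1280 codons and Gm48269 a frame of 369 codons. As background, long frames of this kind are those of the mouse LINE-1 genes ORF2 and ORF1. No LINE-1 reference sequence was compared here. Whether these members are copies of a host mRNA, as their label says, was not tested. By best match, 72 were ORF2-like and 26 ORF1-like. At least 95.7% of the bases of each LINE-1-like member were matched, against at most 31.1% in any other member. The best coding transcripts for these 98 members came from only 16 genes, chief among them D10Wsu102e with 34 members.

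Of the LINE-1-like members 71 had passed the rule through the alignment-free table alone, so a higher sum in that table is in part fixed by the choice of members, and the sums are a description. Their summed scaled count in the alignment-free tables was 15870, 14210 and 15680 in replicates 1, 2 and 3. In the alignment-based tables the sum was 153, 144 and 162. The spread between libraries was small in each table, with an SD of 907 around a mean of 15250 and of 9.02 around 153. They made up 60%, 31.8% and 53.2% of the members' alignment-free counts and 2.59%, 5.11% and 5.14% of their alignment-based counts. A few members held much of it, with 62.3% of the mean alignment-free count of the set in its 10 highest members.

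Gm48493 led the set, with alignment-free counts of 39232, 34534 and 40108 and alignment-based counts of 85, 124 and 134. Gm48415 had 16495, 28502 and 27781 alignment-free counts against 5.19, 33.2 and 19.3 alignment-based counts. Gm42927, which lies inside 6530403H02Rik on the same strand, had 15389, 19322 and 20790 against 22, 35.4 and 31. In each of these members every alignment-free count lay above every alignment-based count by orders of magnitude. Gm48111, with the same full-length frame as Gm48493, had 14393, 15883 and 17088 alignment-free counts, and Gm47102 had 9244, 10517 and 11219. The ORF1-like Gm48269 had 8062, 7926 and 8772 and Gm47654 had 6102, 7329 and 8501. Gm19220, also among the 10 highest, is not LINE-1-like: its 803 bases matched Naa10, an N-terminal acetyltransferase subunit, at 74.2% over 64.3% of its length, and it had 8796, 16514 and 16798 alignment-free counts but was listed at 0 in the alignment-based tables. Those 8 members varied less between libraries than Gm12895 and Gm12896.

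**Figure D2:**
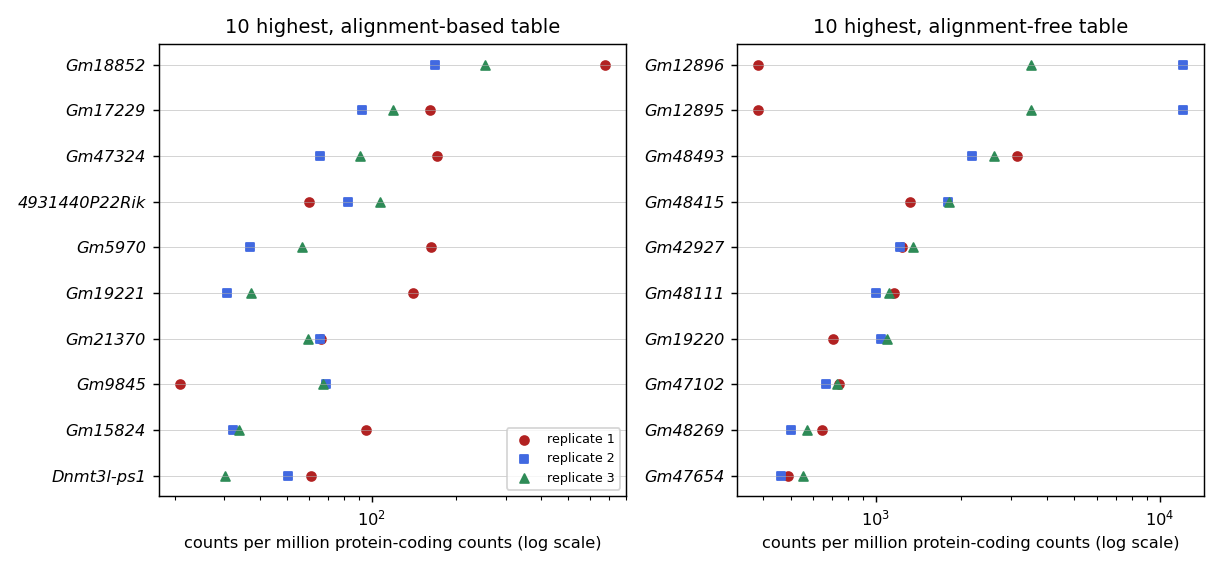
Scaled counts (per 1000000 protein-coding counts, log scale) of the 10 highest members of each table, with 1 symbol per replicate. In the alignment-based table replicate 1 was highest for 8 of the 10 members, and in the alignment-free table Gm12895 and Gm12896 spanned 384 to 12116.

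The difference between tables was tested gene by gene over the 13378 genes with a mean of at least 10 in both. For each library the log2 ratio of the alignment-free to the alignment-based count, with 1 added to each, was corrected for the ratio of protein-coding totals, and limma's treat test asked whether its mean exceeded 1 log2 unit in size at a Benjamini-Hochberg adjusted p of 0.05. Among all genes 725 were called higher in the alignment-free table (5.42%) and 1 lower (0.00747%). Among the 460 members tested, 36 were called higher (7.83%) and 0 lower, and at an unadjusted limma p under 0.05 there were also 0 lower. Of the 36 members called, 22 were LINE-1-like, out of 27 such members tested, and 14 were among the other 433 members. Since that set was defined with its values known, this split is a description. The median difference over members was 0.19 log2 units, against 0.14 over the other genes tested. In 364 of the 460 members (79.1%) the mean difference stayed within 1 log2 unit, as it did in 84.6% of all genes tested.

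The 5 largest called differences all belonged to LINE-1-like members. Gm48415 was higher by 9.84 ± 0.82 log2 units in the alignment-free table (SD, n = 3, limma adjusted p = 0.0028). Gm42927 followed at 8.60 ± 0.18 (limma adjusted p = 0.00092) and Gm48111 at 8.24 ± 0.07 (limma adjusted p = 0.00041). Gm47654 and Gm48493 differed by 7.96 ± 0.59 and 7.73 ± 0.36. All 5 were higher in each of the 3 libraries. Not every LINE-1-like member differed this much: Gm47036 differed by 3.58 ± 0.28, and Gm48333 and Gm48499 by 0.42 and 0.16 without a call. Outside the set the largest difference was that of AC124237.1, a match to Tmem72, at 6.47 ± 0.36 (limma adjusted p = 0.0018). These 4 were picked out after their values were seen.

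Of the 10 highest members in the alignment-based tables, 8 lay inside another gene on either strand, 4931440P22Rik overlapped a gene in part and Gm9845 lay outside genes. The highest was Gm18852 on chromosome 7 (chr7:105925000-105928592), inside Gm4070 on the same strand, with counts of 5217, 1683 and 2521. Its scaled counts were 676, 168 and 253, with replicate 1 well above the others. The posterior SD of its count reached 8.68% of the count. Gm17229 lies in Pde7b, a cyclic AMP phosphodiesterase gene, on the same strand and resembles the F-box gene Fbxo34 at 86.4% identity; its scaled counts were 162, 92.6 and 120. Gm47324 lies on the same strand in Fchsd2, a gene of endocytosis, and its source Dnaaf2 is a factor of cilium assembly with a level of 0.30 ± 0.18 TPM here (SD, n = 3). Scaled counts of Gm47324 were 171, 65.7 and 91.2. In TPM, which is not scaled to protein-coding counts, Gm47324 was at 110.72, 30.08 and 52.33. Fchsd2 was at 1232, 388 and 712 TPM in the same order of libraries. Both were highest in replicate 1 and lowest in replicate 2; replicate 1 was highest in most members inside genes, and which gene the reads came from was not tested.

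Gm5970 on chromosome 18 matched the immunity-related GTPase gene Iigp1 at 88.1% and lies in Gm4951 on the same strand. Its scaled counts were 162, 37.0 and 56.8. Gm19221, a copy of the phosphatase subunit gene Ppp2r2a, lies opposite to Sav1, a scaffold of the Hippo pathway, with scaled counts of 141, 30.7 and 37.3. Gm15824 lies opposite to Tbc1d1, a regulator of Rab GTPases, with 96.0, 32.3 and 33.8. In all of these replicate 1 was above the other two. Gm21370, a copy of the phosphatase gene Ctdsp1, was instead level across libraries, with scaled counts of 65.9, 65.7 and 59.6. Dnmt3l-ps1 inside Gm13684 had 61.1, 50.4 and 30.0, and its source Dnmt3l, a cofactor of DNA methylation, had a level of 0.02 ± 0.03 TPM.

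A pair of the leading members ran the other way between libraries. The copy of Cflar, an inhibitor of caspase-8 activation, is Gm9845, which lies outside genes on chromosome 3; its scaled alignment-based counts were 20.9, 69.1 and 67.3, so replicate 1 was lowest. In TPM Gm9845 had 29.57, 74.76 and 88.9, while Cflar itself had 368, 129 and 167 and was highest in replicate 1. The posterior SD that the tables give for the count of Gm9845 reached 15.4% of the count. The transcribed pseudogene 4931440P22Rik, which matched the ribosomal protein gene Rpl29 at 93.2%, had scaled counts of 59.8, 82.6 and 107.

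Members typed as transcribed processed pseudogenes were 118 of the 301 annotated (39.2%), compared with 1044 of 9943 (10.5%) for the other type. The 5 highest in the alignment-based tables were Gm17229, 4931440P22Rik, Gm17137, 3110001I22Rik and Gm15666. Gm17137, opposite to the nuclear export gene Xpo6, had scaled counts of 51.6, 35.6 and 27.7. 3110001I22Rik in Bfar had 68.3, 18.8 and 26.5, and Gm15666 in Tmtc2 had 47.1, 16.0 and 28.3. All 3 were highest in replicate 1.

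Position in other genes was not used by the rule, and members lay inside genes more often than the annotated pseudogenes as a whole, which is given as a description. Of the annotated processed pseudogenes 28.2% lie wholly inside another gene, but 59.7% of the members did. The members inside genes numbered 272 on the same strand as the surrounding gene and 422 on the opposite strand, and 439 members lay outside genes and 29 overlapped a gene in part. Of the 272 on the same strand 15 overlapped an exon of the surrounding gene, as did 80 of the 1143 annotated pseudogenes in that position. In the alignment-based tables, 14.4% of the same-strand and 13.0% of the opposite-strand pseudogenes reached a mean count of 10, against 1.14% of those outside genes. The strand setting of the quantification was not given in the sources used here, so that reads of a copy on the opposite strand and reads of the surrounding gene cannot be told apart. Members inside genes held 81.1% ± 7.46 of the members' alignment-based counts but 22.5% ± 10.9 of their alignment-free counts (SD, n = 3). Gm12895, Gm12896 and 72 of the 98 LINE-1-like members lay outside genes. The pair and the LINE-1-like set made up much of the members' alignment-free counts, as given above.

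The share of copies that reached the minimum was larger where the surrounding gene had a higher level. For same-strand copies it was 0.642% where the surrounding gene was at 0 TPM, 25.0% above 1 and up to 10 TPM, 54.8% above 10 and up to 100 TPM and 76.5% above 100 TPM. For opposite-strand copies the corresponding shares were 0.482%, 17.6%, 43.6% and 69%. Across the 1143 same-strand pseudogenes, the count per base and the TPM of the surrounding gene had a Spearman rank correlation of 0.73, and across the 1741 opposite-strand pseudogenes of 0.74. Among the members alone, those passing in the alignment-based table, it was 0.54 on the same strand (n = 165) and 0.45 on the opposite strand (n = 227). These values run across genes that share the same libraries, and they are a description. Some surrounding genes held several members: Tbc1d1, Gnaq, which encodes a G protein alpha subunit, and Med15, a Mediator subunit gene, each held 3 of the members passing in the alignment-based table.

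**Figure D3:**
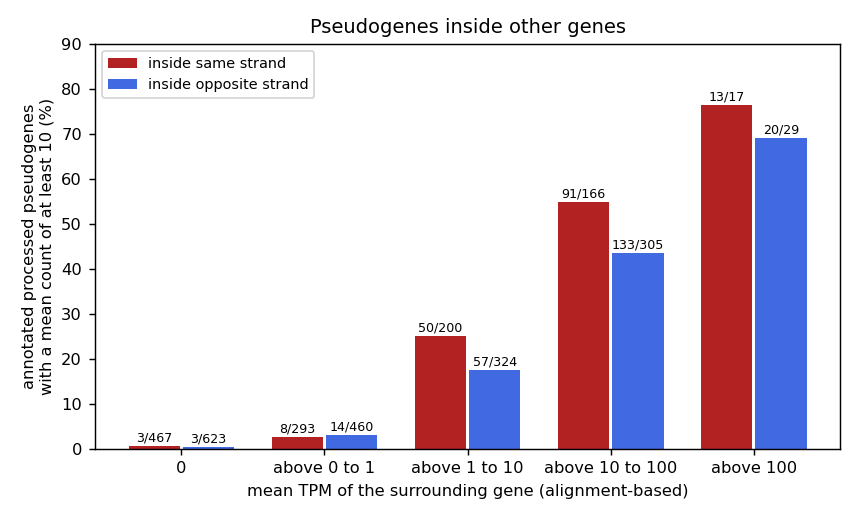
Bars give the share of annotated processed pseudogenes with a mean alignment-based count of at least 10 (y axis, percent), by the mean TPM of the gene around them (x axis) and by strand; numbers over bars are pseudogenes passing of all in the bin. Both strands go from under 1% where the surrounding gene is at 0 TPM to 76.5% and 69% above 100 TPM.

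Copies of ribosomal protein genes were the largest family with a known source, 264 members from 65 source genes. Ribosomal protein mRNAs are abundant in most cells, and their copies are frequent in mammalian genomes. Of these members 123 passed in the alignment-based table. The summed scaled count of all 264 was 660 ± 236 there and 1085 ± 306 in the alignment-free table (SD, n = 3). The 72 cytoplasmic ribosomal protein genes, all above the minimum, summed to 1462 ± 114 in the alignment-based table. The copies thus reached 67.7%, 31.9% and 38.1% of the counts of the genes in replicates 1, 2 and 3. Of the 264 copies 211 lay inside other genes and 46 outside. How much of their counts came from reads of the surrounding genes was not tested. Rpl7a had 23 copies among the members, Rps2 22 and Rpl17 15. Of the 120 copies tested between tables, 3 were called higher and 0 lower. Over all 13378 genes tested, 725 (5.42%) were called higher and 1 lower.

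Among copies named after ribosomal protein genes, Rpl36-ps2 was highest; it lies opposite to Abr, which had a level of 452 ± 107 TPM. The scaled counts of Rpl36-ps2 were 15.2, 16.4 and 12.8. In TPM it had 75.77, 77.52 and 68.01, and it did not follow the order of Abr, at 329, 525 and 502, in replicate 3. Per length its level was 73.8 ± 5.06 TPM, against 26.2 ± 2.60 TPM for Rpl36 (SD, n = 3).

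The other families were smaller. By the symbol of the best match, glycolysis genes were the source of 34 members, with Gapdh the match of 19 and Gm10358 of 8. High mobility group genes were the source of 33, hnRNP genes of 24 and oxidative phosphorylation genes of 23. Genes with symbols starting in Eef or Eif were the source of 20 and chaperones of 19. Ubiquitin and proteasome genes gave 19, cytoskeletal genes 12, other nuclear proteins 12, histones 7 and ferritin 3. These families were written with the sources in view. Hmgb1-ps5, a copy of the chromatin protein gene Hmgb1 inside the cathepsin gene Ctss, had scaled counts of 47.7, 8.89 and 15.4. Its level was 36.5 ± 34.4 TPM, while Hmgb1 was at 4.57 ± 1.15 TPM and Ctss at 27.6 ± 6.82 TPM. Fth-ps2, a ferritin heavy chain copy in the kinase gene Braf, had 4.93, 1.40 and 1.51, and Hspe1-ps5, a chaperonin copy opposite to the transcription factor gene Sp3, had 1.43, 0.70 and 1.21. Eif4a-ps4, a copy of the translation helicase gene Eif4a1 at 99.9% identity, had alignment-based counts of 9.94, 124 and 105 and alignment-free counts of 0, 472 and 273. Tpt1-ps3 had means under 10 in the alignment-based table and 0, 27.0 and 21.8 alignment-free counts.

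Identity to the source gene went with how certain the alignment-based counts were. The source here is the best coding match, and 27 LINE-1-like members are included by theirs. Whether those 27 are copies of their match was not tested. The tables give a posterior SD for each count, which is 0 where the assignment of the reads did not vary. Among members passing in the alignment-based table with a source, the posterior SD was 0 in all 3 libraries for 90.9% of the 121 copies under 85% identity, for 72.7% of the 99 between 90% and 95% and for 2.22% of the 90 at 98% or more. In those 90 near-identical copies the median posterior SD was 13.4% of the count. Over all 485 members passing in that table, 63 (13.0%) had a posterior SD above 10% of the count, against 2.71% of 12942 other genes. By this measure the split of reads between a near-identical copy and its source was uncertain.

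**Figure D4:**
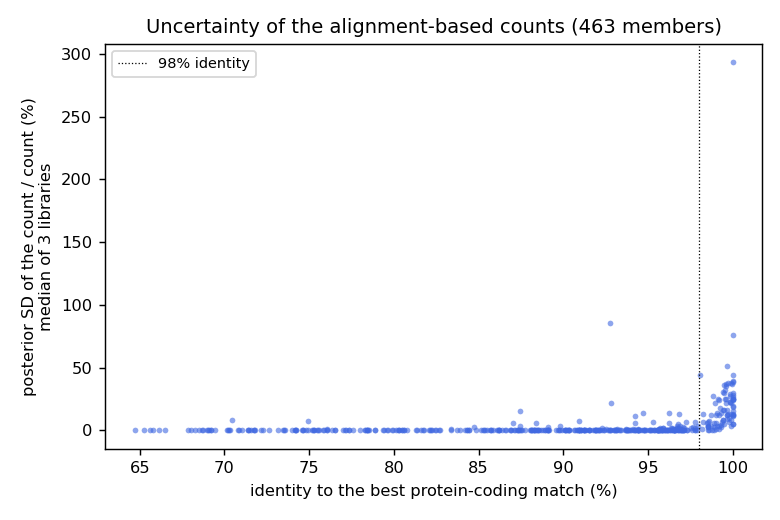
Points are the 463 members with a mean alignment-based count of at least 10 and a best coding match, 27 of them LINE-1-like. The x axis gives identity to that match in percent. The y axis gives the posterior SD of the count as a percent of the count, as the median of 3 libraries. Most values below 95% identity are at or near 0, with single members above 10% there, and values spread upwards to the right of the dotted line at 98%.

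Of the 25 members passing only in the alignment-based table, 22 were at least 98% identical to their source and 17 lay outside genes. The highest was Gm7353, 99.9% identical to the zinc finger gene Zc3h3, with 69.5, 170.5 and 175.0 alignment-based counts and listed at 0 in the alignment-free tables. Gm7964, 99.2% identical to the RNA-binding protein gene Hnrnpk, had 50.5, 121.9 and 108.1 against 1.3, 0 and 0. Gm12183, 98.5% identical to the RNA helicase gene Ddx5, had 30.1, 73.3 and 122.9 against 0, 5.7 and 15.2. The rule's minimum fixes that these copies have the higher mean in the alignment-based table, and they were named after their values were seen.

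The libraries differed in a way that followed position. Among the 392 members inside genes that passed in the alignment-based table, the scaled count was highest in replicate 1 in 82.7%. Among the 82 outside genes it was highest in replicate 1 in 32.9%, and among the 27 LINE-1-like members in 18.5%. The median log2 ratio of replicate 1 to replicate 2 was 1.19 inside genes and -0.27 outside. Replicate 1 was also highest in 81.6% of 305 lincRNA genes, 91.2% of 976 TEC genes (unspliced loci that the annotation keeps as candidates) and 73.0% of 575 antisense genes, but in 44.1% of 10520 protein-coding genes. The order of the libraries was thus also seen in other noncoding classes. Replicate 1 had the most starting RNA and the lowest depth, and with 1 library for each amount these cannot be told apart from the library itself.

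**Figure D5:**
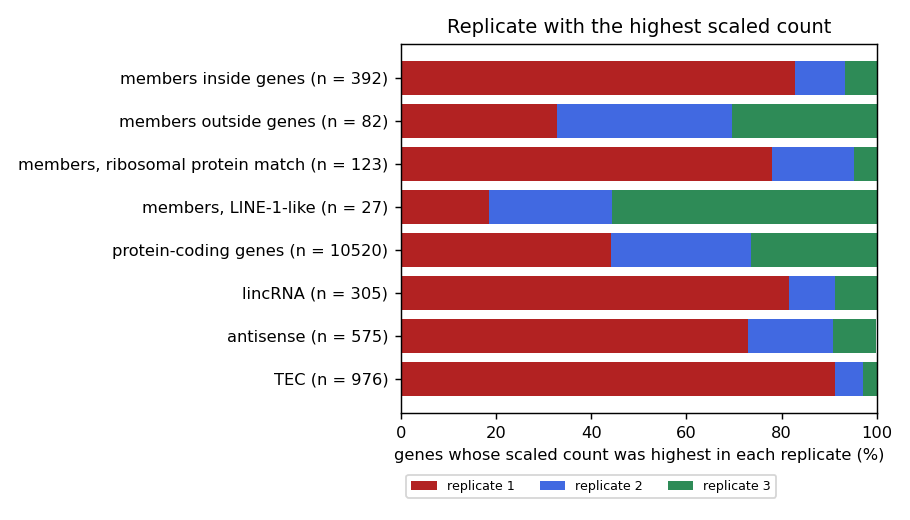
Bars split each set of genes with a mean alignment-based count of at least 10 by the replicate in which the scaled count was highest (x axis, percent of genes). Replicate 1 takes 82.7% of the members inside genes, 32.9% of those outside genes and 44.1% of protein-coding genes.

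Members varied more between libraries than other genes as a whole in the median, but not more than TEC genes. These differences were not tested. The median SD of the log2 scaled count over the 3 libraries was 0.721 for the 485 members, 0.732 for those inside genes and 0.694 for those outside, against 0.401 for 12942 other genes and 0.358 for protein-coding genes passing the same minimum. LINE-1-like members had a median SD of 0.456. Among other noncoding classes the median SD was 0.726 for TEC, 0.634 for lincRNA and 0.572 for antisense genes. The median alignment-based count was 26.3 over the members passing in both tables, and the part of low counts in the spread was not tested. The members are not independent of each other, since 529 of the 1162 shared at least 80% identity over much of their length with another member.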

How the data were processed

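Chromatin-fraction RNA of 3 libraries was analysed from the deposited tables, made on mm10 with GENCODE M21 per the file headers and the accompanying notes. The alignment-based gene tables hold the authors' expected counts, posterior mean counts and TPM, and a posterior SD of each count, deposited as a score. The alignment-free transcript tables hold the authors' estimated counts and TPM, which were summed per gene here. The quantifiers, their versions and the strand setting were not given in the sources used here. Depth is given in the report; counting error is only part of the uncertainty.

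Members were taken by the rule in the report. Source genes were the best blastn match (BLAST+ 2.17.0, E-value 1e-10) among coding transcripts covering at least 50% of the member. LINE-1-like members needed matches of at least 65% identity over 50% of their bases. The difference of tables was tested with limma 3.58.1 treat (pseudocount 1, bound 1 log2 unit, adjusted p 0.05) over all genes, tested on simulated data; edgeR 4.0.16 gave TMM factors for an alternative. The replicates carry the same donor label, so p-values measure only the spread between these libraries.

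Named members were the 10 highest of each table, the 5 largest called differences, the highest -ps member of each family, the 5 highest transcribed members and those next to the threshold. Members, families and lists were chosen with earlier results of these data known. The posterior mean counts serve as an alternative only.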

Additional observations from a re-analysis of the deposited data

How the results depend on the processing

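With TMM scaling the median difference between tables over members was -0.018 log2 units, with a minimum mean of 50 in both tables it was -0.004, and with a minimum of 10 in either table it was 1.40, against 0.193 as reported. The number of members called higher was 36 of 460 and became 6 of 128 with a minimum of 50. It was 506 of 1162 with a minimum in either table and 167 of 460 with no bound. Among all genes, in the same order, 725 of 13378, 136 of 9244, 8463 of 22389 and 5002 of 13378 were called higher. Members called lower were 0 as reported and with a minimum of 50, 14 with a minimum in either table and 62 with no bound. Among all genes 1 was called lower as reported, 0 with a minimum of 50, 30 with a minimum in either table and 1862 with no bound. Leaving out each replicate in turn gave 26 to 33 members called higher and 0 to 1 called lower, the 1 without replicate 1. Among all genes it gave 491 to 589 called higher and 0 to 4 called lower. The number of members was 299 with a minimum mean of 100 and 485 from the alignment-based table only. The cause was not tested; a minimum in either table admits members that pass through the table where they are high, and a minimum of 50 leaves fewer members. Over all annotated processed pseudogenes the alignment-free share stayed higher in every alternative. For the share of counts the difference was 1.34 percentage points with posterior mean counts and between 1.29 and 1.42 without each replicate. Relative to protein-coding counts it was 2.97, and as a share of TPM, a different measure, 6.49. The difference of 0.177 without the LINE-1-like set, Gm12895 and Gm12896 is of members only, which these counts chose. LINE-1-like members numbered 90 to 102 under other definitions chosen after seeing the data. No paired analysis was possible because there is 1 group of samples; the tables were already compared within each library. Shallow counts limit what can be said of single members near the minimum of 10.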
